A study of Gallus gallus with 6 samples.

Results

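The fibroblast growth factor (FGF) receptors FGFR1, FGFR2, FGFR3, FGFR4 and FGFRL1 and the intracellular family member FGF13 were followed in the leg muscle of Xinghua chickens, a slow-growing native breed; the labels give the birds as female. The genes were taken by symbol, and 6 of 13364 gene symbols and 6 of 19937 transcripts met this rule, 1 transcript per gene. Muscle was resected at 11 (E11) and 16 (E16) days of incubation and 1 day after hatching (D1, labelled P1), with 2 libraries per stage and no treatment named in the labels. Total RNA depleted of ribosomal RNA was sequenced, and the labels separate the groups by age alone. The level of a transcript was expressed as FPKM, a count of fragments scaled to transcript length and library size. Each of 3 tables, E11 vs. E16, E16 vs. D1 and E11 vs. D1, holds 1 FPKM per transcript and stage over both libraries. No value per library and no read count is held, so no spread between birds, no interval and no test can be given for any value below. "Higher" and "lower" describe these pooled values. How many reads stand behind any FPKM is unknown.

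FGF receptors are tyrosine kinases of the cell surface. They bind secreted FGFs together with heparan sulfate chains and pass the signal through the docking protein FRS2 to RAS and the MAP kinases, while SPRY, SPRED and DUSP proteins and IL17RD restrain it. In limb muscle, FGF signals keep myoblasts dividing and hold back their fusion into fibers. FGFR4 is the receptor best known from differentiating embryonic muscle, FGFR3 from growing cartilage, FGFR2 from epithelia and skeletal mesenchyme, and FGFR1 from mesenchyme and myoblasts. FGFRL1 binds FGFs but lacks the kinase, and in mice its loss impairs the diaphragm muscle and the kidney. FGF13 is not secreted and does not act through these receptors; it binds voltage-gated sodium channels and, in mouse neurons, microtubules.

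The tables were scaled separately. Over transcripts at 1 FPKM or above in both tables, an E11 value in E11 vs. D1 was a median of 0.83 times that in E11 vs. E16 (1st to 99th percentile 0.829 to 0.832). The factor was 0.705 for E16 in E16 vs. D1 against E11 vs. E16, and 0.853 for D1 in E16 vs. D1 against E11 vs. D1. The tables thus hold the same libraries under other scale factors, and levels are compared within a table. The 3 comparisons share libraries and are not independent. Log2 ratios were taken of the later over the earlier FPKM after adding 0.1 to both, and their median was 0.00 over 13483 transcripts for E11 vs. E16, 0.05 for E16 vs. D1 and 0.03 for E11 vs. D1. A transcript was counted as 2-fold higher or lower where this ratio was at least 1 or at most -1, and folds printed are plain ratios of the deposited FPKM. The labelled tissue was checked against fiber genes. All 8 measured fiber markers were 2-fold higher at E16 than at E11, among them skeletal alpha-actin ACTA1 (FPKM 232 to 15838) and fast troponin TNNT3 (FPKM 381 to 9813).

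Between E11 and E16, FGFR2, FGFR3 and FGFR1 were lower, FGF13 was higher, and FGFR4 and FGFRL1 were nearly level. Of the 6 genes, 3 were 2-fold lower and 1 was 2-fold higher, against 12.8% of all transcripts 2-fold lower and 15.1% 2-fold higher. Across hatching, from E16 to D1, FGFR2, FGFR3 and FGFR4 were 2-fold lower, 3 of 6 against 11.4% of all transcripts. FGFR1 and FGFRL1 were nearly level over that step, and FGF13 came close to the threshold from the lower side. Over the whole span from E11 to D1, 4 of 6 were 2-fold lower and FGF13 was 2-fold higher, against 21.1% and 22.1% of all transcripts. The median log2 ratio of the 6 genes was -0.69 for E11 vs. E16, -1.09 for E16 vs. D1 and -1.23 for E11 vs. D1. Genes of 1 family are not replicates of a stage, and 6 are few to set against such shares.

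**Figure D1:**
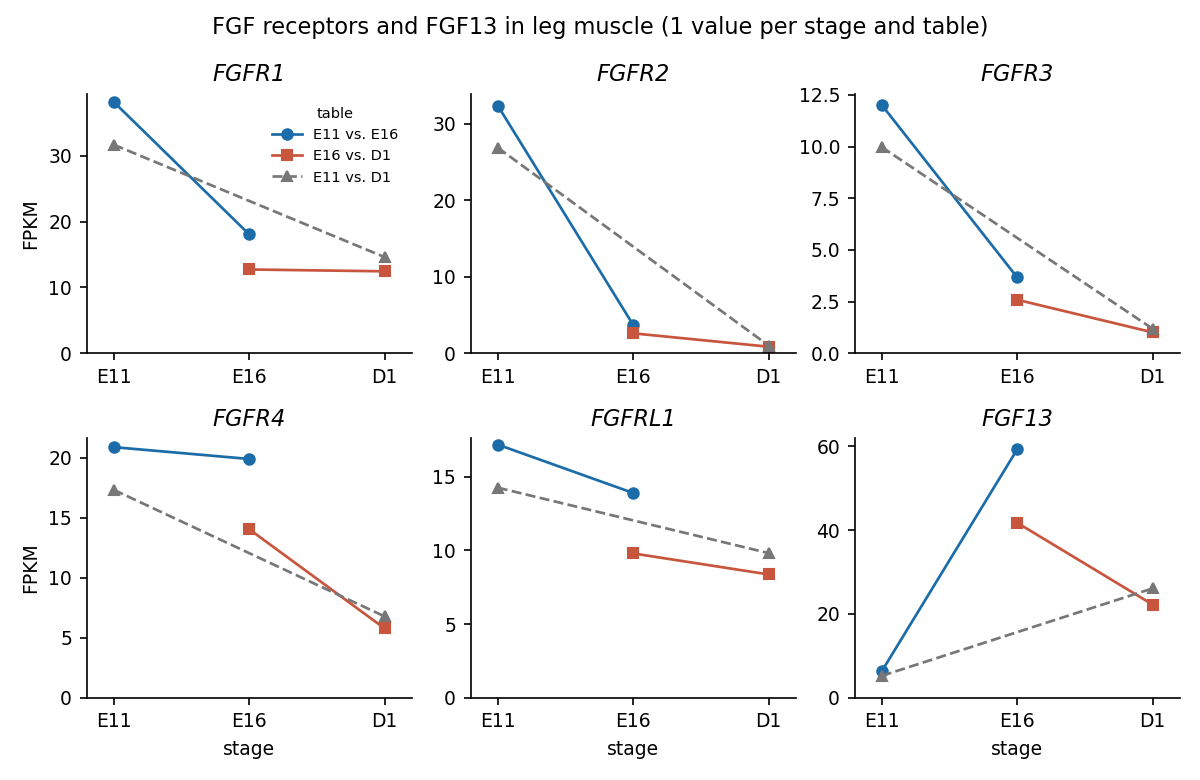
FPKM (y axis, from 0, with its own range in each panel) of the 6 genes at E11, E16 and D1 (x axis). Each line joins the 2 stages of 1 table, so the 2 values shown for a stage differ by the scale factor between tables and are not replicates. Of the receptors, FGFR2 differed most between E11 and E16, FGFR4 was over 2-fold lower between E16 and D1 but level before, and FGF13 was highest at E16.

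FGFR1 (ENSGALT00000005246) lies on chromosome 22 at chr22:2331115-2345392 of galGal4, a locus of 14.3 kb. Its FPKM was 38.2 at E11 and 18.0 at E16, 2.11-fold lower, a log2 ratio of -1.08 that is just past the threshold. In E16 vs. D1 it was 12.7 and 12.4, a log2 ratio of -0.03. The whole difference between E11 and D1 (FPKM 31.7 and 14.6) therefore lay before E16. FGFR1 was the most abundant receptor at E11, above 90.2% of the Ensembl transcripts, and still above 74.9% of them at D1.

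FGFR2 (ENSGALT00000038732) lies on chromosome 6 at chr6:30411293-30490016, a locus of 78.7 kb. Its FPKM was 32.4 at E11, close to that of FGFR1, and 3.69 at E16, 8.76-fold lower (log2 ratio -3.10). In E16 vs. D1 it was 2.60 and 0.852, a further 3.06-fold (log2 ratio -1.51). Between E11 and D1 it was 26.9-fold lower, 26.9 against 0.999 FPKM, the largest difference of the 6 genes. It moved from above 88.0% of the Ensembl transcripts at E11 to above 38.6% at D1. The epithelial and mesenchymal splice forms of this receptor differ in which FGFs they bind, and with 1 transcript per gene in the tables they cannot be told apart here.

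FGFR3 (ENSGALT00000001712) lies near the end of chromosome 4 at chr4:82973161-83026374. Its FPKM was 12.0 at E11 and 3.67 at E16, 3.27-fold lower (log2 ratio -1.68), and 2.59 at E16 and 1.01 at D1 in the next table, 2.56-fold lower (log2 ratio -1.28). At E16 it stood level with FGFR2 (FPKM 3.69), after being less abundant than FGFR2 at E11. At D1 both were at an FPKM near 1, where a pseudocount weighs on the ratio: with FPKM raised by 1 in place of 0.1, the log2 ratios for E16 vs. D1 were -0.96 for FGFR2 and -0.84 for FGFR3, short of 2-fold.

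FGFR4 (ENSGALT00000025332) lies on chromosome 13 at chr13:9595615-9599869, the most compact locus of the 6 at 4.25 kb. It was the receptor that differed least before E16, with an FPKM of 20.9 at E11 and 19.9 at E16 (log2 ratio -0.07). Its FPKM was then 14.0 at E16 and 5.78 at D1 in the next table, 2.43-fold lower (log2 ratio -1.27). It was thus the most abundant of the receptors at E16 and stood below FGFR1 and FGFRL1 at D1. Its course ran opposite to that of FGFR1, which was lower at E16 and level afterwards, though with no spread between libraries the contrast of the steps was not tested.

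FGFRL1 (ENSGALT00000025361), the receptor without a kinase, lies 1604 kb beyond FGFR3 on chromosome 4 at chr4:84630673-84795926, with 13 Ensembl transcripts between them. Its FPKM was 17.2 at E11 and 13.9 at E16, and 9.79 at E16 and 8.37 at D1 in the next table, log2 ratios of -0.30 and -0.22. Over the whole span it was 1.45-fold lower (FPKM 14.2 and 9.81), the smallest difference of the 6 genes. Its locus, the longest at 165 kb, also holds 1 other transcript, a microRNA entry. FGFR1 was above it and FGFR3 below it at every stage, whereas FGFR2 and FGFR4 were above it at E11 and below it at D1. FGFR2 stood at 1.88 times FGFRL1 at E11, at 0.266 times at E16 and at 0.102 times at D1.

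FGF13 (ENSGALT00000010519) lies on chromosome 4 at chr4:4730771-4781663, on the far side of the chromosome from FGFR3 and FGFRL1. Its FPKM was 6.31 at E11 and 59.2 at E16, 9.38-fold higher (log2 ratio 3.21), and it was then above 92.8% of the Ensembl transcripts. Across hatching it was 41.8 and 22.2, 1.88-fold lower, a log2 ratio of -0.91 that did not reach the threshold. At D1 it was still 4.98-fold higher than at E11 (FPKM 26.1 against 5.24). FGF13 was the least abundant of the 6 genes at E11 and the most abundant at both later stages.

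**Figure D2:**
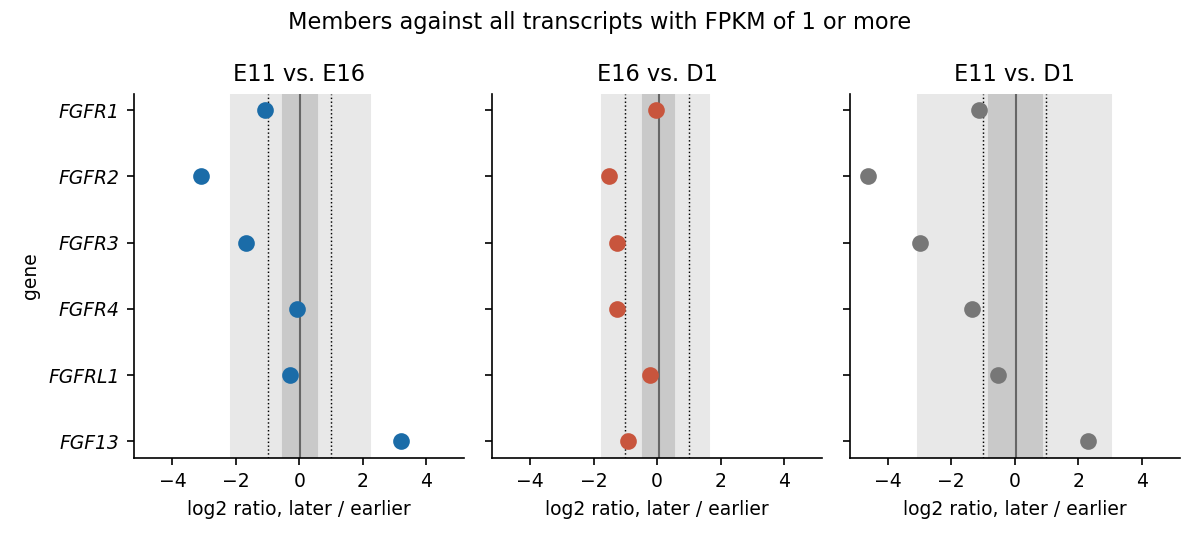
Log2 ratio of later to earlier FPKM (x axis) of the 6 genes (y axis, points) for each comparison. The pale band spans the 5th to 95th percentile of all measured transcripts, from -2.14 to 2.24 for E11 vs. E16 and from -1.74 to 1.64 for E16 vs. D1, the dark band spans the 25th to 75th percentile, the solid line is the median and dotted lines mark 2-fold. FGFR2 and FGF13 lie outside the pale band for E11 vs. E16 and no gene does for E16 vs. D1.

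The makeup of the receptors with a kinase differed between stages, and their sum was lower at each later stage. FPKM is a level per length, so the genes can be set side by side. FGFR1 to FGFR4 together stood at an FPKM of 103.4 at E11 and 45.3 at E16, 2.28-fold lower, and at 32.0 at E16 and 20.1 at D1 in the next table, 1.59-fold lower. At E11, FGFR1 made up 36.9% of the sum, FGFR2 31.3%, FGFR4 20.2% and FGFR3 11.6%. At E16, FGFR4 led with 43.9%, FGFR1 followed with 39.8%, and FGFR2 and FGFR3 were down to 8.15% and 8.10%. At D1, FGFR1 made up 61.9% and FGFR4 28.8%, with 4.24% for FGFR2 and 5.03% for FGFR3. The order at E11 was FGFR1, FGFR2, FGFR4, FGFRL1, FGFR3 and FGF13, and at D1 it was FGF13, FGFR1, FGFRL1, FGFR4, FGFR3 and FGFR2. Which neighbours in these orders differ beyond the spread between birds is not known.

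**Figure D3:**
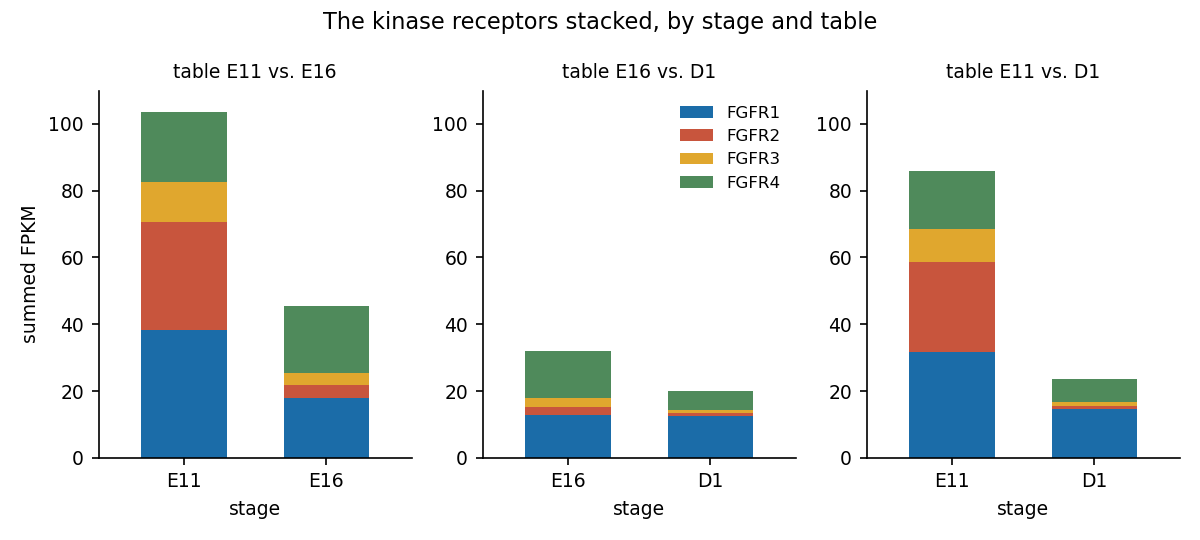
Summed FPKM (y axis, from 0) of FGFR1, FGFR2, FGFR3 and FGFR4 as stacked bars by stage (x axis), with 1 panel per table because the tables were scaled separately. The stack for E11 in E11 vs. E16 reaches 103.4 and that for E16 reaches 45.3, where FGFR4 is the tallest part.

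Epidermal, kidney and cartilage markers were lower at E16 as well, over the step in which FGFR2 and FGFR3 differed most. In bulk tissue, fewer cells of a type and less RNA per cell cannot be told apart. Of 13 epidermal markers, 12 were measured for E11 vs. E16 and 11 were 2-fold lower at E16; their summed FPKM was 174 at E11 and 15.6 at E16, led at E11 by desmoplakin DSP (FPKM 40.1 to 0.781) and keratin KRT14 (FPKM 35.8 to 1.48). All 10 measured kidney markers were 2-fold lower, from a summed FPKM of 190 to 5.46, led by the transporter SLC13A3 (FPKM 49.9 to 0.529) and the endocytic receptor LRP2 (FPKM 37.3 to 1.63). SLC34A1 of that list was listed at 0 at E16. Of 10 measured cartilage markers, 8 were 2-fold lower, among them COL11A1 (FPKM 173 to 61.9) and COL9A2 (FPKM 6.97 to 0.76), and the matrix genes COMP and CHAD were 2-fold higher. Tendon and connective tissue markers were mixed, with 4 of 9 measured 2-fold lower and 1 higher. The 4 were the transcription factors MKX (FPKM 13.1 to 2.90), PRRX1 (FPKM 48.8 to 21.4), OSR1 (FPKM 55.1 to 19.4) and TCF21 (FPKM 2.49 to 0.217), while the summed level, led by the matrix gene DCN, went from 947 to 1380. The part of these tissues in the E11 levels of FGFR1, FGFR2 and FGFR3 was not tested. In E16 vs. D1, FGFR2 and FGFR3 were each over 2-fold lower. The summed epidermal markers were 11.0 and 10.7, led by CLDN1 (FPKM 4.56 to 4.86). Of 6 measured there, GRHL3 was 2-fold lower (FPKM 1.26 to 0.338) and DSG2 was 2-fold higher (FPKM 0.395 to 1.01). The summed kidney markers were 3.84 and 4.46, with 2 measured and none past 2-fold. Of 5 measured cartilage markers in that step, COL9A1 was 2-fold lower (FPKM 1.24 to 0.403), COMP (FPKM 17.3 to 74.4) and CHAD (FPKM 7.60 to 28.9) were 2-fold higher, and COL2A1 (FPKM 12.5 to 8.54) and COL11A1 (FPKM 43.6 to 33.6) were within 2-fold. The summed tendon and connective tissue markers were 973 and 545 in that step. Of 8 measured, LUM was 2-fold lower (FPKM 301 to 82.9), and MKX (FPKM 2.05 to 4.21) and FMOD (FPKM 24.2 to 70.3) were 2-fold higher. The part of these tissues in FGFR2 and FGFR3 at D1 was not tested.

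Fiber, fat cell, Schwann cell and endothelial markers were higher at E16 than at E11, as FGF13 was. The summed FPKM of the fiber markers went from 1433 to 41274, that of fat cell markers from 40.4 to 1522 and that of nerve and Schwann cell markers from 43.0 to 569. The last sum was carried by components of myelin, above all MBP at 297 FPKM at E16 against 1.86 at E11 and PMP22 at 179 against 19.8. The neuronal markers of that list were lower, namely NEFL (FPKM 6.43 to 2.44), TUBB3 (FPKM 2.73 to 0.210) and NEFM, which was at 5.06 at E11 and listed at 0 at E16. Of 10 endothelial markers, 5 were 2-fold higher and none was 2-fold lower, with sums of 154 and 385. In the next step the fiber and fat cell sums were higher still (29101 to 42741, and 1067 to 1410), whereas FGF13 was lower. Single genes of both lists were lower as well. Of 8 measured fiber markers, none was 2-fold higher and 1 was 2-fold lower, CAV3 (FPKM 7.33 to 184, then 129 to 53.6). Of 8 measured fat cell markers, CD36 and ADIPOQ were 2-fold higher and DGAT2 was 2-fold lower (log2 ratio -2.97). RBP7 of that list was lower within 2-fold (FPKM 352 to 216). The nerve and Schwann cell sum was 400 at E16 and 356 at D1. The summed muscle progenitor markers were 94.5 and 229 for E11 vs. E16, and 162 and 132 for E16 vs. D1. Of 4 measured, 2 were 2-fold higher and none 2-fold lower in the first step, and 2 were 2-fold lower and none higher in the second. Myogenin MYOG, a factor of myoblast differentiation, was level before E16 (FPKM 17.1 and 15.1) and lower after it (FPKM 10.7 and 1.47), the same order of steps as FGFR4. MYF5 was 2-fold higher before E16 (FPKM 1.02 to 3.27) and within 2-fold after it (FPKM 2.30 to 1.40). MYOD1, which sets muscle identity, went from 57.5 to 98.3 FPKM between E16 and D1. Myostatin MSTN, an inhibitor of muscle growth, was highest at E16, as FGF13 was (FPKM 21.2 to 129, then 91.1 to 30.3). The part of cell makeup in FGFR4 and FGF13 was not tested.

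**Figure D4:**
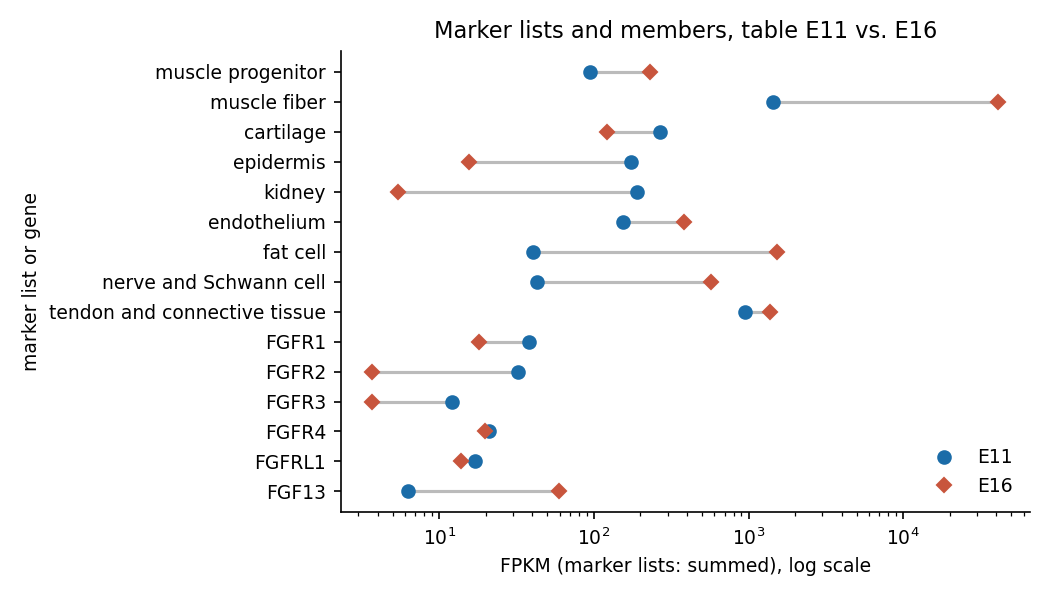
Summed FPKM of each marker list and FPKM of each of the 6 genes (y axis) at E11 (circles) and E16 (diamonds) in E11 vs. E16, on a log x axis. The epidermal and kidney sums (174 to 15.6 and 190 to 5.46) moved to the left as FGFR2 and FGFR3 did, and the fiber, fat cell and nerve and Schwann cell sums moved to the right as FGF13 did, the last through its myelin genes.

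Around the receptors, 8 lists of FGF pathway genes were looked up, of which 96 of 108 genes were analysed. For E11 vs. E16, 82 were measured, with 1 FPKM or more at either stage. Of these, 11 were 2-fold higher and 17 were 2-fold lower, with a median log2 ratio of -0.29. Over all genes, 12.7% were 2-fold higher, 11.4% were 2-fold lower and the median was -0.01. For E16 vs. D1, 11 of 74 were 2-fold higher and 7 were 2-fold lower, against 10.4% and 9.60% of all genes. For E11 vs. D1, 16 of 80 were higher and 18 were lower, against 20.4% and 19.6%. For E11 vs. D1 the counts past 2-fold were thus near the background, whereas the median log2 ratio was -0.24 against 0.03 over all genes. The median for E16 vs. D1 was 0.12 against 0.05. The results below concern single groups.

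Among the secreted ligands, 8 of 15 were measured for E11 vs. E16, of which 2 were 2-fold higher and 4 were 2-fold lower, with a median log2 ratio of -0.64. FGF7, which signals to epithelia through FGFR2, was the most abundant (FPKM 17.8 and 15.0). FGF8, a signal of the limb ridge in the chick, was lower at E16 (FPKM 2.65 to 0.373), as were FGF9 (FPKM 2.97 to 0.622), FGF10, the mesenchymal signal of limb outgrowth (FPKM 11.4 to 5.54), and FGF18, a ligand of FGFR3 in cartilage (FPKM 11.3 to 5.22). FGF1, which binds every kinase receptor of the family, was higher (FPKM 0.804 to 3.69), and so was FGF16 (FPKM 0.85 to 2.41). From E16 to D1, FGF4, another ridge signal, was lower (FPKM 8.08 to 1.54) and FGF9 was higher (FPKM 0.44 to 1.22), and the median was 0.08. Of the other FGF homologous factors, FGF12 was at an FPKM of 11.2 at E11 and 15.8 at E16 and FGF14 at 2.03 and 1.03. Neither passed 2-fold in any comparison, so the large difference of FGF13 was not seen in its measured relatives.

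Of the co-receptors and heparan sulfate proteins, 16 were measured for E11 vs. E16, of which none was 2-fold higher and 4 were 2-fold lower. Lower were the klotho gene KL (FPKM 1.49 to 0.351), the glypicans GPC5 (FPKM 1.18 to 0.297) and GPC6 (FPKM 10.5 to 1.54), and SULF2, an enzyme that trims sulfate from heparan chains (FPKM 66.2 to 28.8). The most abundant, glypican GPC4, was at an FPKM of 117 and 83.6. From E16 to D1, the syndecan SDC4 was higher (FPKM 8.64 to 20.0) and SULF1 was lower (FPKM 12.7 to 6.21). Among membrane partners, N-cadherin CDH2, which binds FGFR1 in neurons and holds myoblasts together, was lower in both steps (FPKM 60.2 to 24.6, then 17.4 to 5.98). The transcript of NCAM1 used here, a neural adhesion molecule, was lower from E16 to D1 (FPKM 25.6 to 5.83), as was FLRT3 (FPKM 13.0 to 6.21). Another transcript of NCAM1 was within 2-fold over that step (FPKM 26.0 to 14.5). From E11 to E16 both were within 2-fold, the transcript used being lower (FPKM 61.5 to 36.3) and the other higher (FPKM 27.4 to 36.8). FGFBP1, a carrier of FGFs made by epithelia, was at an FPKM of 2.48 at E11 and 0.0357 at E16, and FGFBP2 at 1.06 and 0.191.

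The relay below the receptors differed little. Of 25 measured genes, 1 was 2-fold higher and 1 was 2-fold lower for E11 vs. E16, with a median log2 ratio of -0.09. FRS2 was at an FPKM of 15.5 and 14.1 and the adaptor GRB2 at 72.1 and 56.5. The gene past 2-fold downwards was the phospholipase PLCG1, a direct substrate of the receptors (FPKM 19.2 to 6.61), and the gene upwards was HRAS, listed as H-RAS (FPKM 146 to 717). That level is high for a RAS gene, and whether all its fragments came from HRAS was not tested. From E16 to D1, SHB (FPKM 5.70 to 12.1) and PIK3R1, the regulatory subunit of PI3 kinase (FPKM 34.5 to 104.9), were higher.

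Feedback inhibitors and target factors were mixed in direction. IL17RD, a membrane inhibitor that is itself switched on by FGF signals, was lower in both steps (FPKM 37.0 to 13.3, then 9.36 to 3.78). DUSP4, a phosphatase of MAP kinases, was lower at E16 (FPKM 3.79 to 0.865) and was listed at 0 at D1, and DUSP5 was higher at E16 (FPKM 0.885 to 1.94). SPRY3 was higher in both steps (FPKM 0.653 to 2.57, then 1.81 to 5.38), while SPRY1 (log2 ratio -0.25, then 0.30) and SPRY2 (log2 ratio -0.58, then -0.27) stayed within 2-fold. ETV4 and ETV5, factors induced by FGF signals in the limb bud, were lower at E16 (FPKM 7.32 to 0.774, and 7.79 to 2.62). From E16 to D1, ETV4 was at 0.546 and 0.606, and ETV5 was higher within 2-fold (FPKM 1.84 to 3.35). Between E11 and D1, ETV5 was lower within 2-fold (FPKM 6.46 and 3.93). The immediate early genes FOS (FPKM 0.231 to 1.83), EGR1 (FPKM 11.0 to 43.4) and JUN (FPKM 37.9 to 103) were higher at E16, and these respond to many signals besides FGF. FOS (FPKM 1.29 to 19.1) and JUN (FPKM 72.7 to 171) were higher again at D1, as was MYC (FPKM 2.68 to 6.44).

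The sodium channels, partners of FGF13, included the largest difference of the pathway lists. SCN4A, the channel of the adult muscle membrane, was at an FPKM of 0.0993 at E11 and 8.62 at E16, and at 6.08 at E16 and 37.1 at D1 in the next table. The accessory subunits SCN4B (FPKM 1.40 to 6.47) and SCN2B (FPKM 0.902 to 5.18) were higher at E16 as well. SCN4B was higher again at D1 (FPKM 4.56 to 9.43). SCN3A, a neuronal form, was level before E16 (FPKM 2.50 and 2.73) and lower after it (FPKM 1.93 to 0.322). FGF13 and SCN4A were thus both higher at E16 than at E11, and from E16 to D1 SCN4A was higher and FGF13 lower.

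**Figure D5:**
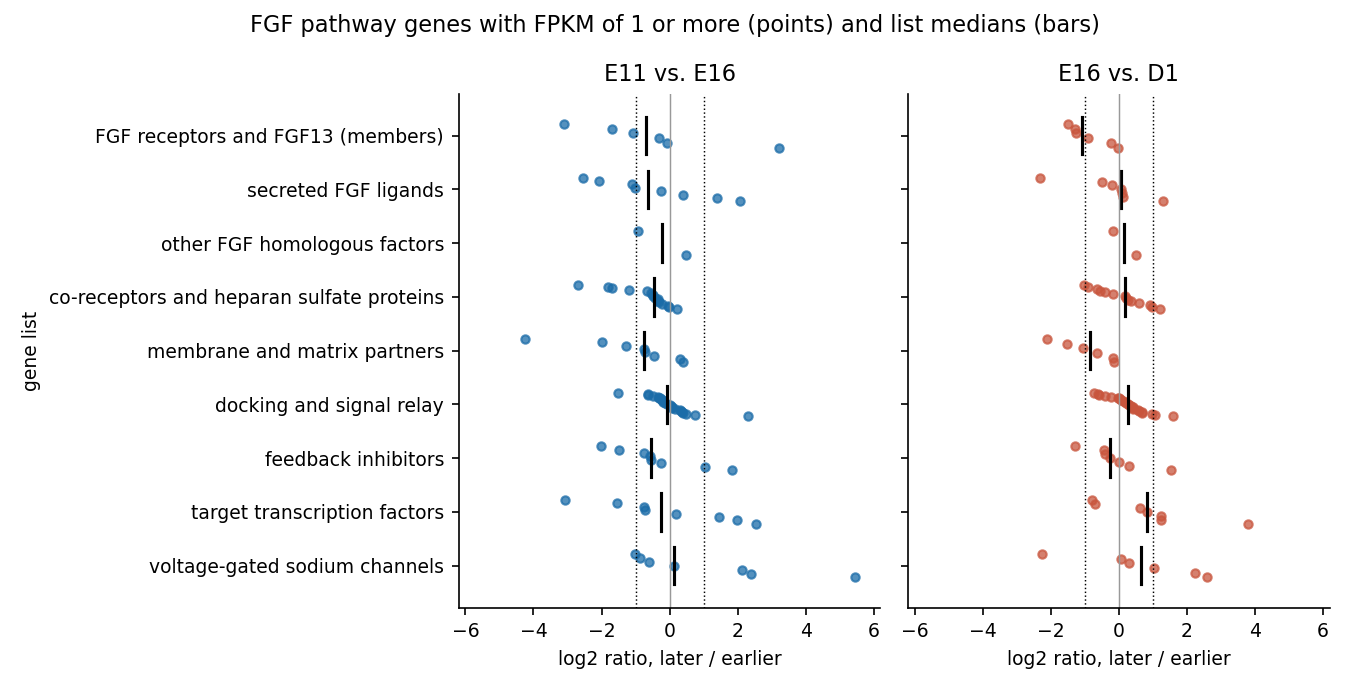
Log2 ratio of later to earlier FPKM (x axis) of each gene with at least 1 FPKM (points) in the 6 genes and the 8 pathway lists (y axis), with the list median as a bar and dotted lines at 2-fold. The relay genes cluster around 0 with a median of -0.09 for E11 vs. E16, and SCN4A is the point farthest to the right there.

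By the positions in the tables, FGFR1 had 1 lncRNA within 300 kb, FGFR2 had 2, FGFRL1 had 2, and FGFR3, FGFR4 and FGF13 had none. Beside FGFR1, lnc00045805 at chr22:2160836-2162220, 169 kb away, was at an FPKM of 0.503 at E11 and 2.49 at D1 as FGFR1 was at 31.7 and 14.6. The steps did not coincide. From E11 to E16, where FGFR1 was lower, lnc00045805 was within 2-fold (FPKM 0.605 to 1.04). From E16 to D1, where FGFR1 was level, lnc00045805 was 2-fold higher (FPKM 0.731 to 2.12). Beside FGFR2, lnc00077951 (99.6 kb away) was at 0.712 at E11 and listed at 0 at E16, and lnc00077964 (58.0 kb away) at 0.508 and 1.26. Both lncRNAs of FGFRL1, lnc00063223 and lnc00063243, stayed below an FPKM of 1. The study predicts FGF13 as a cis target of lnc00023378, with such targets sought within about 300 kb of a lncRNA. In the tables lnc00023378 lies on chromosome 13 at chr13:16935567-16937680, 204 kb from FGF1. FGF13 is on chromosome 4, so by these positions the pair is not within that distance. lnc00023378 was listed at 0 at E11 and reached 10.3 FPKM at D1 in E11 vs. D1. In E16 vs. D1 its FPKM was 0.209 and 8.78. FGF1 was at 2.60 and 2.75 over that last step and FGF13 at 41.8 and 22.2.

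The genes most like each of the 6 in their course were sought by the distance between log2 ratios over E11 to E16 and E16 to D1. Searched were 7091 genes with an FPKM of 5 or more in at least 1 stage of each of these comparisons. FGFR2 and FGFR3 themselves miss that floor in E16 vs. D1, reaching only 2.60 and 2.59. Genes that fall as steeply pass it only from a high E11 level, so the numbers of genes below cannot be compared between the 6. For FGFR2 and FGF13, 1 searched gene lay within a distance of 0.25 of each, MDK for FGFR2 (FPKM 166 to 20.4, then 14.4 to 4.91) and TCEA3 for FGF13 (FPKM 3.74 to 35.3, then 24.9 to 13.5). Next to FGFR2 came FABP7 and COL24A1 at distances of 0.422 and 0.636, and next to FGF13 LGALSL and YPEL1 at 0.339 and 0.359. For FGFR3, 7 genes lay within 0.25, led by ADAMTS17, PTPRF and FEZ1. FGFR4 had 34, led by FRMD4B, EF1A and CCDC109B, FGFR1 had 40, led by EPHB2, SLIT3 and CTNNAL1, and FGFRL1 had 496, led by SIPA1L1, GNAI1 and NUP153. Over 2 steps and pooled libraries such likeness is a description only.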

How the data were processed

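The authors trimmed reads (Trim Galore in the sample labels), mapped them to the chicken genome galGal4 with TopHat and Bowtie, assembled transcripts with Cufflinks and computed FPKM, merging both libraries of a stage. The deposited tables hold FPKM of Ensembl transcripts and lncRNAs at 2 stages each. Their further columns hold the authors' own comparison (fold change, test statistic, p, q and call) and were not used. Fragments were shared among transcripts, so read counts and depth could not be recovered, and a fit across libraries was not possible. Estimates that failed under too many fragments (10 transcripts for E11 vs. E16, 16 for E16 vs. D1 and 16 for E11 vs. D1) were set aside.

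Log2 ratios were taken of FPKM raised by 0.1. Transcripts or genes that reached 1 FPKM at either stage of a table were counted as measured, and a gene was represented by its transcript with the highest mean FPKM. Symbols were matched without regard to case, and 5 through synonyms in the RefSeq gene table of GRCg7b. All 6 genes passed the filter in each table. The 8 pathway and 9 marker lists, and the 6 genes, were chosen with earlier results of these data known. Described are all 6 genes, the 2 most abundant genes of a list and those past 2-fold, up to 6 (some genes of the lists are not reported here), together with single genes chosen after their values were seen (FRS2, GRB2, MYOD1, MYOG, MSTN, SCN3A, FGF14, COL2A1). Starts are counted from 1. Python 3.11.15 with numpy 2.4.6, pandas 2.3.3 and matplotlib 3.10.9 was used. Other pseudocounts, folds, filters, summed transcripts, centring and the other tables were tried.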

Additional observations from a re-analysis of the deposited data

How the results depend on the processing

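No paired analysis was possible because each table holds 1 value per stage over both libraries, and for the same reason no replicate could be left out. Log2 ratios of the 6 genes were recomputed with another pseudocount, summed transcripts, centring or the other tables. Of these 90 values, none changed sign and 79 moved by less than 0.1. Many of the 90 could hardly move. Summing left them unchanged, as each gene has 1 transcript. Centring shifts all genes of a comparison alike (at most 0.05), and the other tables hold the same libraries rescaled (at most 0.01). Under a pseudocount of 1, 10 of 18 values moved by 0.1 or more, up to 0.82. With FPKM raised by 1, 1 of the 6 genes (FGFR4) was 2-fold lower for E16 vs. D1 in place of 3. At a fold of 4, 1 gene (FGFR2) was lower for E11 vs. E16 in place of 3, 0 for E16 vs. D1 in place of 3, and 2 (FGFR2 and FGFR3) for E11 vs. D1 in place of 4. At a fold of 1.5 the counts of the 6 genes stayed within 1.5 times those given above, as they did under the other alternatives run for them. So did the counts of pathway genes with FPKM raised by 1, summed transcripts or no filter, and the share of all transcripts under other filters; other folds were not run for these. FGFR2 and FGFR3 at D1 are at an FPKM near 1, where the depth is not known.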
